A study of Mus musculus with 6 samples.

Results

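Monocyte-derived macrophages and microglia were told apart, barcode by barcode, in immune cells from mouse gliomas. Of 7328 barcodes kept in 4 tumour libraries (17362 barcodes were deposited for all 6 libraries of the series), 819 met a monocyte-derived macrophage gate and 2373 a microglia gate, 3192 in all. Members were chosen by measured values: the gates were sums of raw UMIs, the deduplicated molecule counts of each cell. The macrophage gate asked for at least 5 UMIs of Ms4a4c, Plac8, Lyz1, Ly6i and Ly6c2 together, more than of the microglial genes or of the border macrophage genes Mrc1, Pf4, Cbr2, Cd163 and Lyve1, and at most 2 UMIs of the dendritic cell genes Cd209a, Clec4b1, Ccl17, Olfm1 and Flt3. The microglia gate asked for at least 3 UMIs of Tmem119, Olfml3, Gpr34, Crybb1, Golm1 and Slc2a5 together, and more than of the border and monocyte genes together. Both gates allowed at most 1 UMI of 6 lymphocyte genes (Cd3d, Cd3e, Cd3g, Trac, Nkg7 and Cd79a).

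The cells were sorted by fluorescence for CD45, the surface protein of blood-derived and other immune cells, and sequenced with 10x Genomics Single Cell 3' v3 chemistry. Tumours were found at an early stage by the GFP of a Rosa-CAG::GFP Cre reporter and dissected. Control tumours were Trp53 ko and Rbpj wt, Rbpj-/- tumours (called Rbpj-deleted here) were Trp53 ko and Rbpj ko, and healthy brain was wt for both genes, with 2 libraries each. Both tumour groups are therefore labelled as lacking Trp53; the labels tie Rbpj-/- to the tumour and do not say whether the immune cells carry either deletion, and the Cre driver, strain and age are not given in the sources used here. Material was pooled from 9 healthy brains, from 15 tumours for the control group and from 9 for the Rbpj-deleted group by the design text; the protocol instead has the cells of each mouse in 1 well, so p-values measure the spread between libraries, which may be technical. Values below follow the order control tumours 1, control tumours 2, Rbpj-deleted tumours 1, Rbpj-deleted tumours 2.

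Microglia are the resident macrophages of the brain parenchyma. They arise from yolk sac progenitors, renew themselves locally, depend on Csf1r and TGF-beta signalling, and are known for genes such as P2ry12, Tmem119 and Sall1. Monocytes are made in the bone marrow, leave it through the chemokine receptor Ccr2, and become macrophages in inflamed or tumour-bearing tissue. Border macrophages of the meninges, perivascular space and choroid plexus are a further resident population with an Mrc1-positive phenotype. In gliomas, recruited and resident macrophages lie side by side and share many surface proteins, so they are commonly separated by RNA.

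The macrophage gate held 138, 20, 164 and 497 cells, and the microglia gate 275, 246, 1233 and 619. Control tumours 2 thus contributed the fewest macrophages, at the minimum of 20 cells set for a summed library. Macrophages made up 11.3% (95% exact binomial interval 9.56 to 13.2), 2.65% (1.62 to 4.06), 5.43% (4.65 to 6.30) and 21.3% (19.7 to 23.1) of kept barcodes, and microglia 22.5%, 32.5%, 40.8% and 26.6%. In healthy brain 1 and 2 the gates took 0.696% and 1.24% (macrophages) and 76.6% and 75.0% (microglia), all of it in dissected and sorted material. Neither share differed between tumour genotypes beyond the spread of 2 libraries: the Rbpj-deleted minus control difference was 6.42 percentage points for macrophages and 6.19 for microglia (exact permutation test, two-sided, p = 0.667 for each; the smallest p this design allows is 0.333). Depth differed between the classes, with median UMIs per cell of 13118, 12925, 9073 and 7337 in macrophages against 9443, 8128, 7740 and 6363 in microglia, higher in macrophages in 4 of 4 libraries (log2 ratio 0.39 ± 0.22 SD, n = 4; exact sign-flip permutation test, two-sided, p = 0.125, the smallest possible).

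By construction the gate genes separated the classes, and they are given as a description. The 5 monocyte genes summed to 7308, 6807, 4183 and 5945 raw CPM (counts-per-million of all UMIs of a class in a library) in macrophages and to 194, 204, 209 and 232 in microglia. The 6 microglial genes summed to 3625, 3783, 2669 and 2975 raw CPM in microglia. In macrophages they stood at 180, 935, 668 and 622 raw CPM, which is 4.96%, 24.7%, 25% and 20.9% of the microglial level. Some barcodes carried RNA of both classes: 256 of 819 macrophages had at least 3 UMIs of the microglial gate genes, and 395 of 2373 microglia had at least 3 of the monocyte gate genes. Close to the limits, 19 tumour barcodes had 4 UMIs of the monocyte genes and 20 had 5, and 87 had 2 UMIs of the microglial genes and 67 had 3. A further 550 barcodes passed the macrophage gate and 1029 the microglia gate but for the lymphocyte limit, the latter with a median of 27489 UMIs per barcode.

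Levels of longer gene lists that the gates did not use were also compared between the classes. The 30 homeostatic microglial genes together stood in macrophages at 9.71%, 31.8%, 28.8% and 23.8% of their microglial level, lowest in control tumours 1. Stricter gates, with at most 1 UMI of the other gates and none of the lymphocyte genes, lowered these values to 4.97%, 3.57%, 7.33% and 6.56%. The limit on the genes of the other gates favours such a fall by construction. The value of control tumours 2 then rests on 9 macrophages, under the minimum of 20. Monocyte genes in microglia stood at 14.1%, 12.2%, 22.3% and 15.5% of their macrophage level, and at 6.97%, 3.66%, 9.91% and 5.64% with the stricter gates. The homeostatic list's median difference between macrophages and border macrophages was 0.11 on the log2 scale. How much of these levels is RNA of the other class, and how much a class's own expression, was not tested. Every difference below is therefore one between sums that hold some RNA of both gene lists. The part of the other class's RNA in each single gene was not tested.

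**Figure D1:**
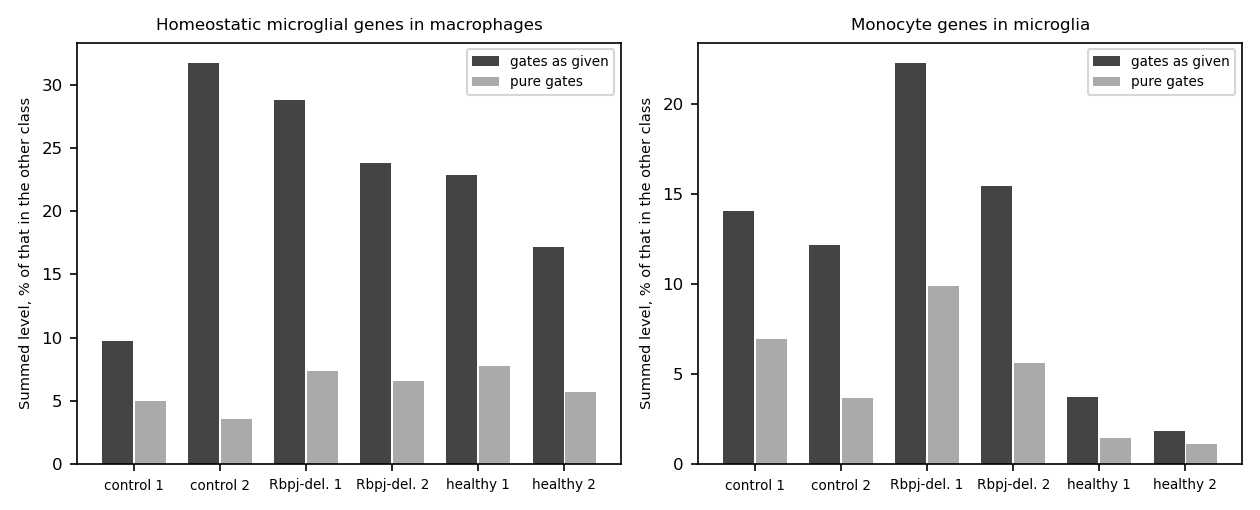
Summed level of the homeostatic microglial list in the macrophage gate (left) and of the blood monocyte list in the microglia gate (right), each as a percentage of its level in the other class, for the 6 libraries, with the gates as given (dark bars) and with the stricter gates (light bars, pure gates in the key). In the tumour libraries the dark bars on the left run from 9.71% to 31.8% and the light bars from 3.57% to 7.33%. The 3.57% of control tumours 2 rests on 9 macrophages.

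UMIs were summed per library and class and the 2 classes were compared within libraries, leaving out the gate genes. Of 9529 genes tested, 1915 were higher in macrophages (20.1%) and 1694 higher in microglia (17.8%) at an adjusted p under 0.05 in edgeR's quasi-likelihood test, 37.9% in all. The counts given below for gene lists stand beside these shares of all genes. The median difference over all genes tested was -0.04 on the log2 scale. With scaling by library size alone that median moved to -0.18 and the split to 1556 higher in macrophages and 2161 higher in microglia, so differences close to 0 depend on the scaling. The classes did not overlap across the 4 libraries for 2834 genes (29.7%). Because the classes were cut from these same cells, the calls state which further genes follow the gates in every library; they are not an independent test that the classes exist. Genes are named by a fixed rule of size and p; the following fall outside it and were chosen after their values were seen: Isg15, Rsad2, Ifit1, Slfn8, Aim2, Cxcl9, Cd74, H2-Eb1, H2-T22, Cx3cr1, Mertk, Trem2, C1qa, C3, Il1b, Vegfa, Tgfb1, Cd40, Clec7a, Tlr3, Tlr7, Cybb, Arg1, Nos2, Spp1, Apoe, Pgk1, Pkm, Mef2c, Fos, Rhob, Ltb4r1, Itga6, Jam2, Rbpj, Ace, Treml4, Nr4a1 and Tm4sf1. F10, Sall1 and Sparc are label checks.

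Among genes averaging at least 50 CPM (counts-per-million) in the higher class, leaving out predicted genes and the others named under the methods, Upp1, the uridine phosphorylase, had the largest rise after Saa3. It stood at 115, 35.4, 34.7 and 73.3 CPM (from here on scaled by TMM, edgeR's normalization between libraries, unless called raw) in macrophages and 2.02, 0.714, 1.06 and 3.66 in microglia, 4.98 ± 0.26 higher on the log2 scale (SE, n = 4 libraries; adjusted p = 1.89e-06). All macrophage values lay above all microglial ones. Hp, encoding haptoglobin, which binds free haemoglobin, was read at 316, 347, 182 and 376 CPM in macrophages and 21.9, 8.92, 11.2 and 18.1 in microglia (4.30 ± 0.22, adjusted p = 2.68e-06).

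Clec4e, the C-type lectin Mincle that senses mycobacterial glycolipid and dead cells, reached 363, 392, 186 and 218 CPM in macrophages and 24.8, 2.85, 11.7 and 15.9 in microglia (4.32 ± 0.51, adjusted p = 0.00214; adjusted p = 0.218 in the control tumours alone). Its microglial level in control tumours 2 was the lowest of the 4. The orphan receptor gene Gpr141 (4.36 ± 0.27), the interferon-induced membrane protein gene Ifitm6 (4.25 ± 0.48; adjusted p = 0.0839 in the control tumours alone), Emb (4.17 ± 0.20), the glutathione transferase gene Mgst1 (4.0 ± 0.29), Slfn1 (3.98 ± 0.32) and the Ly49 family gene Klra2 (3.95 ± 0.24) were also among the largest rises, together with Sirpb1c (4.77 ± 0.23). Of the 31-base words in the Sirpb1c transcript, 56.9% also occur in other genes, so reads could be split between relatives and its value is uncertain.

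Saa3, an acute-phase serum amyloid gene, had the largest fitted rise among the genes at or above that level, with a large error. Macrophages held 862, 402, 317 and 745 CPM and microglia 0.288, 0.357, 16.9 and 47.4 (5.57 ± 1.33, adjusted p = 0.0484). In control tumours the microglial sums held 1 UMI each, and 121 of the 125 macrophage UMIs of control tumours 2 came from 1 cell. The call was lost without control tumours 1, without either Rbpj-deleted library and with no filter on low counts (highest adjusted p = 0.129), while the direction stayed the same.

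On the microglial side, Fcrls, an Fc receptor-like gene known from mouse microglia, stood at 1241, 967, 748 and 1487 CPM in microglia and 63.8, 145, 195 and 320 in macrophages (-2.75 ± 0.41, adjusted p = 0.00276). Ecscr, a small membrane protein first described in endothelium, stood at 78.3, 109, 38.8 and 42.4 CPM in microglia against 3.88, 9.64, 10.5 and 8.27 (-2.76 ± 0.33, adjusted p = 0.000514). Chst7, a sulfotransferase gene, was 56.1, 78.9, 68.8 and 59.1 CPM in microglia and 6.65, 9.64, 17.1 and 10.6 in macrophages (-2.50 ± 0.20, adjusted p = 1.36e-05). In all of these the macrophages of control tumours 1 were lowest, the library whose macrophages also had the lowest microglial list level.

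The other largest falls among genes at or above 50 CPM were Nav3 (-2.82 ± 0.48), the adhesion receptor gene Adgrg1 (-2.67 ± 0.41), the chemokine receptor gene Ccr6 (-2.64 ± 0.36), the protease genes Capn3 (-2.60 ± 0.33), Ctsf (-2.52 ± 0.31) and Adamts1 (-2.50 ± 0.28), the leukotriene C4 synthase gene Ltc4s (-2.53 ± 0.34), Tpbgl (-2.51 ± 0.23) and the transcription factor gene Bhlhe41 (-2.50 ± 0.51). A common direction in 4 of 4 libraries was a condition for naming these 12. The classes did not overlap for any of them, which also held for 29.7% of all genes tested. Nav3 (adjusted p = 0.0778) and Bhlhe41 (adjusted p = 0.327) lost their calls in at least 1 of the alternatives, both of them without Rbpj-deleted tumours 2 and in the control tumours alone, and Adgrg1 in the control tumours alone (adjusted p = 0.107).

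**Figure D2:**
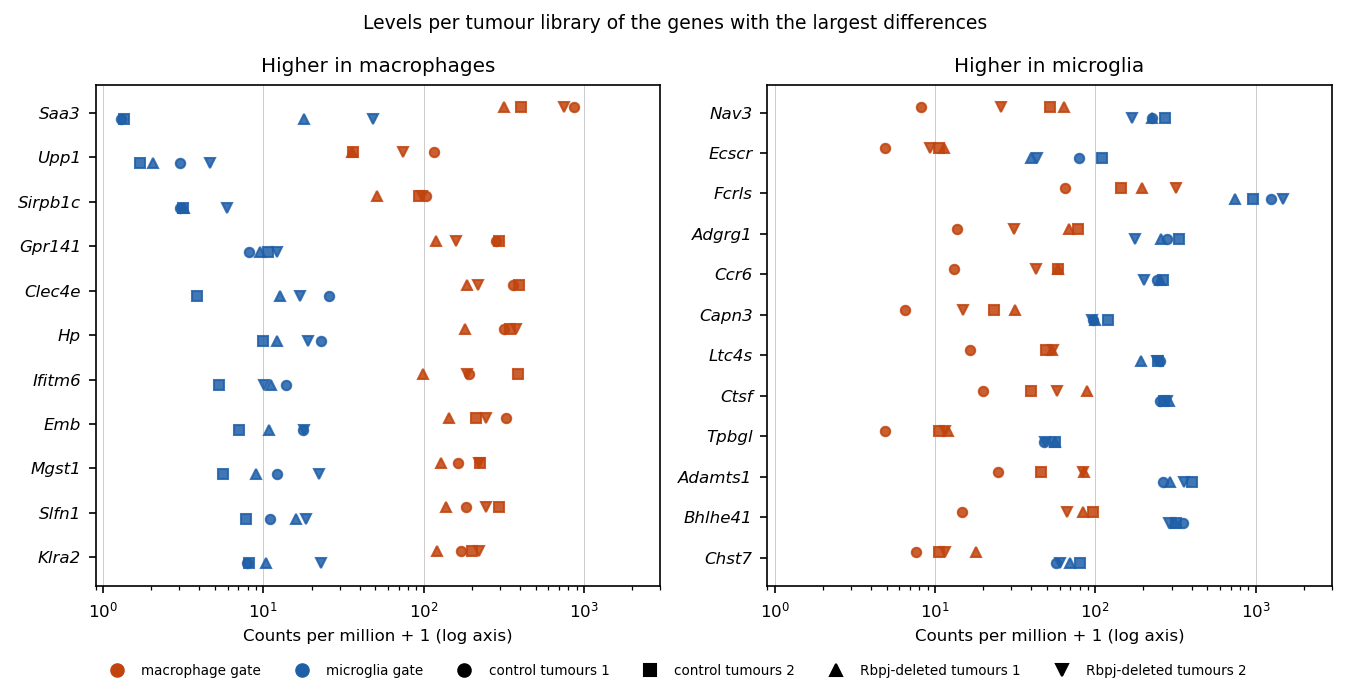
Levels in CPM + 1 (log axis) of 11 of the 12 genes with the largest rises (left) and the 12 with the largest falls (right), with 1 point per tumour library and class; orange points are the macrophage gate, blue points the microglia gate and shapes the libraries. The classes are separate for each gene, Saa3 spreads most in microglia (0.288 to 47.4 CPM), and control tumours 1 is the lowest orange point in all 12 falls.

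The list of 30 blood monocyte and recruited macrophage genes had 26 members tested, of which 24 were higher in macrophages and the other 2 were not called; the median difference was 3.23, against -0.04 over all genes tested. These genes and the gates come from the same cell biology, so the list checks the labels and is not independent evidence. Ccr2, the receptor through which monocytes leave bone marrow, stood at 97.6, 90.0, 42.9 and 123 CPM in macrophages and 3.17, 4.64, 5.32 and 10.2 in microglia (3.76 ± 0.27, adjusted p = 2.3e-05). Itga4, the alpha chain of the VLA-4 integrin, stood at 170, 135, 99.6 and 124 CPM against 14.4, 8.92, 13.8 and 23.2 (3.06 ± 0.23, adjusted p = 2.63e-05). Both were above every microglial value in each library.

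Other members of the list were of the same kind. F10, the gene of coagulation factor X, was read at 148, 25.7, 47.9 and 78.6 CPM in macrophages and 6.62, 9.28, 3.95 and 1.83 in microglia (3.92 ± 0.50, adjusted p = 0.00186; adjusted p = 0.112 in the control tumours alone). Tgfbi, a secreted matrix protein, stood at 390, 457, 791 and 1914 CPM in macrophages and 53.3, 47.1, 62.5 and 231 in microglia (3.22 ± 0.17, adjusted p = 1.89e-06). Chil3, a chitinase-like gene of Ly6C-high monocytes, was 147, 190, 23.1 and 125 CPM in macrophages and 36, 0, 0.76 and 0.366 in microglia; with this spread it missed the threshold (4.5 ± 1.28, adjusted p = 0.0724), and 41.5% of its 31-base words are shared with other genes. Vcan had too few counts to be tested.

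Of 30 homeostatic microglial genes, 28 were tested and all 28 were lower in macrophages, with a median of -2.24; in the control tumours alone 17 of 28 passed. Sall1, a transcription factor that sets microglial identity, was read at 214, 303, 258 and 156 CPM in microglia and 11.1, 67.5, 74.8 and 35.1 in macrophages (-2.47 ± 0.39, adjusted p = 0.00372). Sparc, a secreted matrix glycoprotein, stood at 3911, 4244, 4664 and 4536 CPM against 323, 1190, 1498 and 862 (-2.35 ± 0.33, adjusted p = 0.00146; adjusted p = 0.119 in the control tumours alone). In both, macrophages of control tumours 1 were the lowest and the classes did not overlap.

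P2ry12, the ADP receptor that directs microglial processes to injury, was low in both classes: 11.2, 11.4, 6.61 and 4.94 CPM in microglia and 0.555, 3.21, 0.55 and 0.919 in macrophages (-2.99 ± 0.48, adjusted p = 0.000895). Its macrophage values rest on few UMIs. Siglech, also known from plasmacytoid dendritic cells, differed less, at 930, 1266, 1012 and 649 CPM in microglia and 319, 360, 307 and 169 in macrophages (-1.75 ± 0.14, adjusted p = 1.37e-05). Cx3cr1, the fractalkine receptor often used to label microglia, was still at 122, 383, 531 and 410 CPM in macrophages, against 1587, 1670, 1374 and 1134 in microglia (-2.13 ± 0.42, adjusted p = 0.00915). Selplg (-1.86 ± 0.18), Lag3 (-2.27 ± 0.20) and Bin1 (-2.04 ± 0.22) lay in the same range.

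Transcription factors divided between the classes: of 45 tested, 17 were higher in macrophages and 15 in microglia, with a median of 0.16. Nr1h3, the oxysterol receptor LXR-alpha, was 28.8, 51.4, 61.1 and 52.4 CPM in macrophages and 1.15, 5.35, 4.41 and 6.22 in microglia (3.55 ± 0.24, adjusted p = 5.54e-06). Id3 (3.25 ± 0.29) and Runx3 (2.83 ± 0.23) were also higher in macrophages in 4 of 4 libraries. Lower in macrophages were Maf (-1.08 ± 0.26, adjusted p = 0.0136; call lost without control tumours 2 and with higher gate minimums, adjusted p up to 0.0608), Mef2c (-1.62 ± 0.19) and Sall1.

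The type I interferon response had the highest share of members called higher in macrophages of the lists with at least 10 tested. Interferon-stimulated genes are switched on when factors activated by the interferon receptor bind the interferon-stimulated response element (ISRE), or when IRF3 and IRF7 bind related letters, and encode antiviral proteins and amplifiers of the response. The element was searched on both strands as GAAA, any 2 bases and GAAA in the 300 bases around each gene's start in RefSeq promoters (GRCm38.p6, 250 bases before and 50 after). Stretches of 4 of the matching promoters are printed, chosen to show the element in both directions in genes that were higher in macrophages; capitals mark the matches, and those in the opposite direction read TTTC, any 2 bases and TTTC. Each shows the 150 bases before the start site, 5' to 3' on the gene's own strand.
Isg15 (chr4:156200819-156200968, minus strand): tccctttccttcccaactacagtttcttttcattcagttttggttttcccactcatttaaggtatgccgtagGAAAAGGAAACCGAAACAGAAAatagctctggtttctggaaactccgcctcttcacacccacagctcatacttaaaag
Oas3 (chr5:120777660-120777809, minus strand): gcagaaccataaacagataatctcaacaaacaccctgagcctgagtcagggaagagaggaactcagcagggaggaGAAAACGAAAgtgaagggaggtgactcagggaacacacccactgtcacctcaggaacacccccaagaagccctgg
Rsad2 (chr12:26456453-26456602, minus strand): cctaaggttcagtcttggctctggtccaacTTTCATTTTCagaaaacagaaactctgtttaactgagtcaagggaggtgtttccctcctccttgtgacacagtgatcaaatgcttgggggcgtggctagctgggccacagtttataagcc
Ifit1 (chr19:34640739-34640888, plus strand): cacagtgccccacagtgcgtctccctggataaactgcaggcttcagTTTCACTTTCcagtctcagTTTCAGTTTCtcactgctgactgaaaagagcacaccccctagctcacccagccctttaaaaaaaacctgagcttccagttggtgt

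Isg15 held 3 overlapping matches in that stretch and Ifit1 held 2, in the opposite direction. Over the list, 16 of the 28 promoters matched by symbol held the element (57.1%), against 4.21% of 7482 tested genes with a promoter and 3.99% of all 27025 promoters in the table. Among the genes called higher in macrophages 8.35% held it, and among those called higher in microglia 3.70%. A match describes letters and is not a measured binding site. It was 1 of 7 motifs searched. The C/EBP letters TTNNGCAA, by comparison, were in 12.6% of promoters called higher in macrophages and 12.5% of those called higher in microglia.

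Of 36 type I interferon genes tested, 35 were higher in macrophages and Slfn8 was not called (0.08 ± 0.21); the list's median was 1.74. Over all alternatives run, between 31 and 36 were called higher. The gap was present in healthy brain too, where the list's median was 2.25. For 5 members the class difference was called different between tumour and healthy libraries (3.04% of all genes tested there). Isg15, a ubiquitin-like protein secreted and joined to other proteins, stood at 995, 2022, 980 and 1117 CPM in macrophages and 174, 163, 249 and 232 in microglia (2.58 ± 0.26, adjusted p = 0.000185). Control tumours 2 was the highest library. Oas3, an oligoadenylate synthetase that activates RNase L, stood at 59.9, 129, 90.2 and 113 CPM against 2.3, 13.2, 11.2 and 11.5 (3.38 ± 0.22, adjusted p = 5.85e-06). Irf7, the amplifying interferon regulatory factor, stood at 621, 903, 796 and 1185 CPM against 55.3, 120, 137 and 155 (2.96 ± 0.18, adjusted p = 3.26e-06). None of the 3 overlapped between classes.

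Rsad2, the antiviral protein viperin, was 204, 219, 109 and 146 CPM in macrophages and 13.2, 36.4, 41 and 32.2 in microglia (2.44 ± 0.41, adjusted p = 0.0066; adjusted p = 0.0506 without Rbpj-deleted tumours 2). For Ifit1, which binds foreign RNA ends, the classes overlapped: macrophages held 24.4, 164, 68.8 and 132 CPM and microglia 10.7, 19.3, 27.4 and 25.4 (1.99 ± 0.30, adjusted p = 0.00192). Control tumours 1 had the lowest macrophage level of Ifit1, yet each library on its own was higher in macrophages. Oasl1 (2.01 ± 0.13) and Bst2 (1.15 ± 0.15), which encodes tetherin, were higher as well, and so was Ifi211 (2.76 ± 0.14), of whose 31-base words 78.9% are shared with its relatives.

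The list of genes classically induced by interferon-gamma had 16 of 20 tested members higher in macrophages and 1 lower, with a median of 1.04. Gbp5 and Gbp3, guanylate-binding proteins that attack pathogen vacuoles, differed by 1.37 ± 0.12 (adjusted p = 2.63e-05) and 1.42 ± 0.13 (adjusted p = 3.34e-05). Socs1, a feedback inhibitor of the pathway, stood at 56.6, 77.2, 56.1 and 94.6 CPM in macrophages and 15.8, 27.1, 21.7 and 24.9 in microglia (1.67 ± 0.15, adjusted p = 3.45e-05). Aim2, a DNA sensor, was the member lower in macrophages (-0.68 ± 0.13, adjusted p = 0.00214). Cxcl9, a chemokine for T cells, stood at 3884, 3369, 2515 and 2494 CPM in macrophages and 132, 709, 833 and 868 in microglia; no library overlapped, but the spread between libraries kept it above the threshold (2.46 ± 0.72, adjusted p = 0.0608).

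Antigen presentation differed by smaller amounts. For MHC class II, 8 of 13 tested genes were higher in macrophages and 3 lower (median 0.73). H2-Aa, an MHC class II alpha chain, was 7196, 5678, 6838 and 4790 CPM in macrophages and 2593, 4314, 3246 and 1888 in microglia (1.07 ± 0.19, adjusted p = 0.00139), and Ifi30, a thiol reductase of the antigen-loading compartment, differed by 1.33 ± 0.19. H2-Oa, which restrains peptide loading, was lower in macrophages, at 37.7, 41.8, 39.1 and 16.1 CPM against 117, 150, 90.7 and 52.1 (-1.56 ± 0.15, adjusted p = 3.73e-05). For MHC class I, 11 of 21 were higher and the other 10 not called (median 0.50). With scaling by library size alone the class I count was 9 higher and 2 lower. The proteasome activator gene Psme2 (1.55 ± 0.21, with 33.5% of its 31-base words shared) and the immunoproteasome genes Psmb10 (1.54 ± 0.18), Psmb8 (1.32 ± 0.18) and Psmb9 (1.28 ± 0.16) differed most.

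H2-Eb1 and H2-T22 set the libraries apart more than the classes. H2-Eb1 stood at 197 and 106 CPM in the macrophages of the control tumours and 8964 and 6316 in those of the Rbpj-deleted tumours, and at 40.3 and 59.6 against 5165 and 3051 in microglia. H2-T22 stood at 0 and 3.21 against 200 and 177 CPM in macrophages, and at 1.73 and 1.78 against 91.7 and 68.6 in microglia, with 51.0% of its 31-base words shared with relatives. In both classes the control libraries lay far below the Rbpj-deleted ones. Healthy brain 1 and 2, both labelled wt for Rbpj and Trp53, also lay apart for H2-Eb1. They stood at 2.90 (1 UMI) and 173 raw CPM in macrophages and at 2.32 and 49.7 in microglia. With genotype and library group on the same side in the tumour libraries, tumour genotype and any difference between the mice or library preparations cannot be told apart.

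Genes of migration were mostly higher in macrophages. In the list of S100 proteins and annexins, 11 of 15 tested members were higher in macrophages and 1 lower (median 1.87). S100a6, a calcium-binding protein, was 892, 791, 417 and 791 CPM in macrophages and 111, 62.1, 66.1 and 62.6 in microglia (3.24 ± 0.20, adjusted p = 3.76e-06). S100a11 (3.23 ± 0.17) and S100a4 (3.23 ± 0.20) moved alike, though 48.9% and 49.2% of their 31-base words recur elsewhere. Anxa2, which links membranes to actin, differed by 2.41 ± 0.15. S100a8, a neutrophil protein of the family, was not called, at 22.2, 22.5, 47.9 and 132 CPM in macrophages and 124, 188, 120 and 127 in microglia (-1.37 ± 0.52, adjusted p = 0.100).

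In the cytoskeleton list 16 of 23 were higher in macrophages and 1 lower (median 1.36). Vim, the intermediate filament vimentin, stood at 2090, 1453, 1398 and 1736 CPM against 206, 171, 174 and 251 (3.05 ± 0.15, adjusted p = 1.89e-06). Ahnak (3.11 ± 0.22), Cytip (2.52 ± 0.14) and the actin crosslinker Flna (1.70 ± 0.15) were higher in 4 of 4 libraries. No microglial value of these genes reached the lowest macrophage value.

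Integrins and adhesion molecules divided, with 7 of 23 higher in macrophages and 11 in microglia (median -0.12). Itgal, the alpha chain of LFA-1, was even across macrophage sums at 199, 203, 191 and 199 CPM and stood at 25, 27.8, 32.8 and 39.9 in microglia (2.65 ± 0.15, adjusted p = 2.59e-06). Cd44, the hyaluronan receptor, was 248, 190, 142 and 178 CPM against 37.7, 31.8, 23.1 and 26.3 (2.67 ± 0.12, adjusted p = 1.89e-06). Cd9 (-1.95 ± 0.20), a tetraspanin, Itga6 (-2.14 ± 0.55; call lost without any 1 of control tumours 2 and the Rbpj-deleted libraries, and in other settings, adjusted p up to 0.179) and the junctional protein gene Jam2 (-2.95 ± 0.41) were the other way. Of the integrin alpha chains named, Itgal and Itga4 were thus on the macrophage side and Itga6 on the microglial side.

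Chemoattractant receptors were higher in macrophages for 7 of 14 and lower for 3. Fpr1, the formyl peptide receptor, stood at 33.3, 35.4, 18.7 and 28.7 CPM against 2.3, 0.714, 1.29 and 2.2 (3.97 ± 0.29, adjusted p = 8.84e-06). Ltb4r1, a leukotriene B4 receptor (3.87 ± 0.34), Cxcr4, the receptor for Cxcl12 (2.24 ± 0.14), and Ptafr, the receptor for platelet-activating factor (1.09 ± 0.14), were also higher. Gpr183, an oxysterol-guided receptor, was higher in microglia, at 140, 106, 91.7 and 67.1 CPM against 28.3, 32.1, 35.2 and 26.0 (-1.67 ± 0.18, adjusted p = 8.89e-05). 

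Of 17 chemokine genes tested, 5 were higher in macrophages (29.4%) and 4 higher in microglia (23.5%), against 20.1% and 17.8% of all genes tested. Ccl4, an inflammatory chemokine, was 5476, 4246, 8559 and 2738 CPM in microglia and 2062, 2006, 3421 and 1278 in macrophages (-1.23 ± 0.14, adjusted p = 0.000119), with overlap between classes but the same order in each library. Cxcl2, a neutrophil attractant, was 1144, 212, 512 and 438 CPM in macrophages and 129, 51.7, 125 and 125 in microglia (2.26 ± 0.23, adjusted p = 0.000106). Cxcl16 (1.07 ± 0.14) and the interferon-induced Cxcl11 (2.68 ± 0.25; adjusted p = 0.0551 without the library term) were higher in macrophages. Ccl5 was too (1.78 ± 0.30), but it is also a T and NK cell gene and lost its call in the control tumours alone, with equal cell numbers and without the library term (highest adjusted p = 0.403).

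Among cytokines, 6 of 24 were higher in macrophages and 7 in microglia. Il1b, the inflammatory interleukin-1, stood at 4370, 1890, 3490 and 2408 CPM in macrophages and 685, 472, 1841 and 441 in microglia (2.02 ± 0.29, adjusted p = 0.00115; adjusted p = 0.130 in the Rbpj-deleted tumours alone). Vegfa, the angiogenic factor, stood at 59.9, 64.3, 68.8 and 64.8 CPM against 2.59, 3.57, 17.3 and 8.78 (2.98 ± 0.39, adjusted p = 0.0013). Macrophages were above microglia for both in every library. Il18bp, a decoy for interleukin-18, differed by 1.72 ± 0.12. On the microglial side, Csf1, the growth factor of microglia themselves, stood at 225, 246, 505 and 134 CPM against 21.6, 80.4, 163 and 32.4 (-2.14 ± 0.28, adjusted p = 0.000832; adjusted p = 0.0725 without the library term), and Vegfb (-1.45 ± 0.18) and Gas6 (-1.97 ± 0.28), the bridge between dying cells and TAM receptors, were also lower in macrophages.

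Cytokine receptors divided evenly, 8 of 23 in each direction. Csf1r, the receptor for Csf1 and Il34, was 2602, 3003, 2931 and 2550 CPM in microglia and 695, 1193, 1353 and 1171 in macrophages (-1.37 ± 0.17, adjusted p = 0.00019). Csf2ra, the alpha chain of the GM-CSF receptor, went the other way at 360, 331, 356 and 446 CPM in macrophages and 144, 171, 179 and 252 in microglia (1.02 ± 0.14, adjusted p = 0.000345). Neither overlapped between the classes. Among costimulatory and checkpoint genes, with 7 of 17 in each direction, Slamf7 (2.51 ± 0.25), Cd40 (3.15 ± 0.52; adjusted p = 0.0765 with no filter on low counts) and the PD-L1 gene Cd274 (1.14 ± 0.18) were higher in macrophages, and Havcr2 (-1.10 ± 0.17) and Cd83 (-0.87 ± 0.14; adjusted p = 0.128 without the library term) lower.

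**Figure D3:**
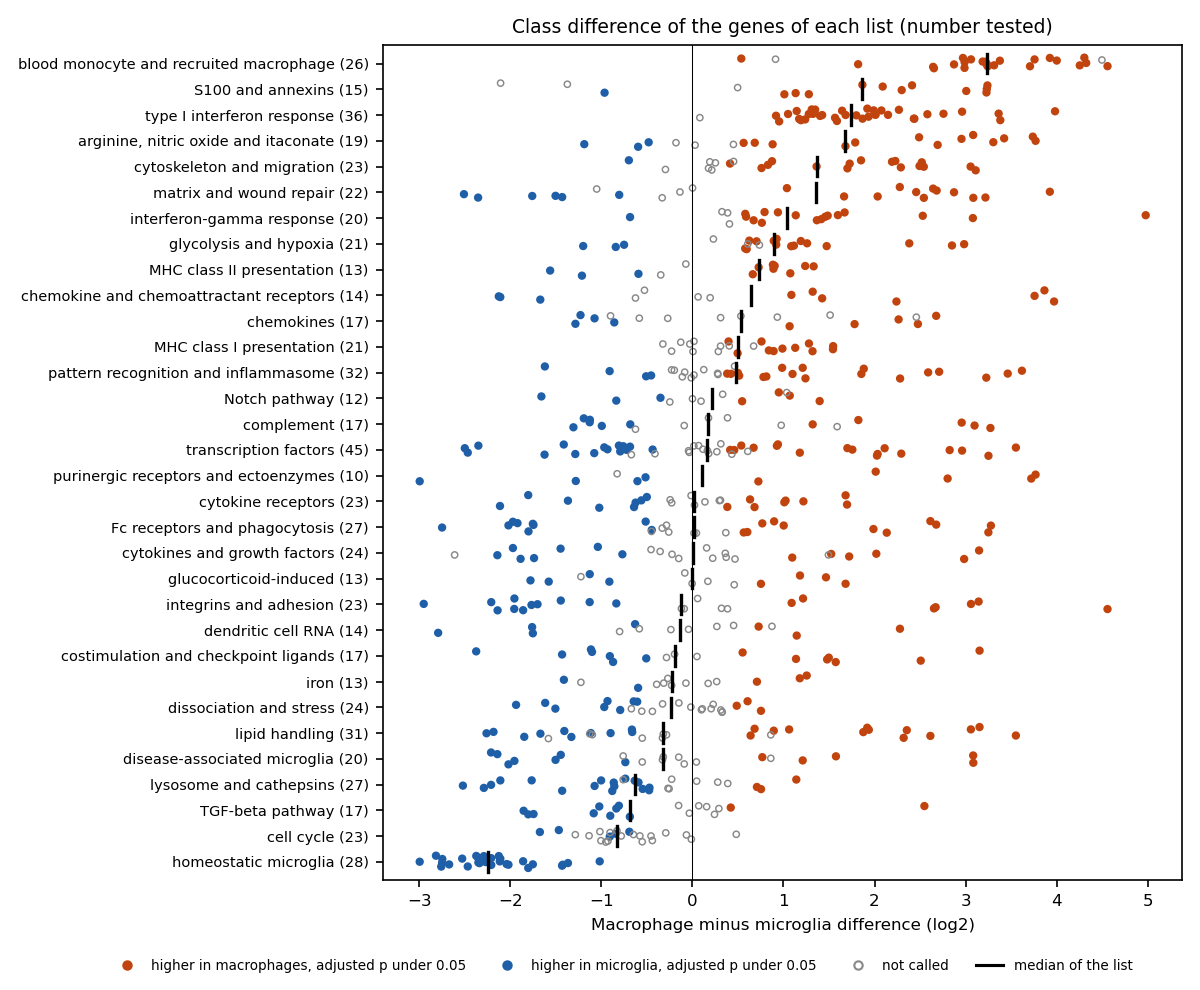
Macrophage minus microglia difference (log2) of each tested gene of the lists with at least 10 members tested, ordered by the list's median (black bar); filled points passed adjusted p under 0.05 and open points did not. The blood monocyte list (median 3.23) and the homeostatic microglia list (-2.24) are the extremes, and the type I interferon list (1.74) has 35 of 36 points filled on the macrophage side.

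Pattern recognition genes were higher in macrophages for 18 of 32 and lower for 4 (median 0.48), led by C-type lectins. Clec4d, the partner of Mincle, stood at 43.3, 57.9, 47.3 and 102 CPM against 6.91, 2.14, 3.72 and 6.77 (3.62 ± 0.26, adjusted p = 1.08e-05). Clec12a (3.23 ± 0.18), Clec4n, encoding dectin-2 (2.71 ± 0.16), and Clec4a3 (1.88 ± 0.14) had the same order in each library. The fungal beta-glucan receptor was nearer between classes: Clec7a differed by 1.21 ± 0.29, and its call was lost without control tumours 2 and with the stricter gates, among others (highest adjusted p = 0.0841). Toll-like receptors 3 and 7 were on the other side, Tlr3 by -1.62 ± 0.24 and Tlr7 by -0.91 ± 0.16.

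Phagocytic receptors were shared out between the classes, 11 of 27 higher in macrophages and 9 in microglia. Trem1 (3.25 ± 0.20) and Trem3 (3.28 ± 0.30), amplifiers of myeloid inflammation, and the scavenger receptor gene Msr1 (2.61 ± 0.31) were macrophage genes. Trem2, the lipid-sensing receptor of microglia, was 2336, 2467, 2902 and 3096 CPM in microglia and 185, 971, 902 and 1064 in macrophages (-2.02 ± 0.41, adjusted p = 0.0104; adjusted p = 0.345 in the control tumours alone). Mertk, which recognises dying cells, was 380, 480, 351 and 221 CPM against 39.4, 161, 125 and 78.8 (-1.92 ± 0.31, adjusted p = 0.00295). For both, macrophages of control tumours 1 were below the other 3.

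Complement genes divided between the classes. C3, the central component, was 1178, 489, 602 and 405 CPM in macrophages and 46.4, 67.1, 73.6 and 66.4 in microglia (3.27 ± 0.36, adjusted p = 0.000639; adjusted p = 0.0639 in the control tumours alone), and Cfp, the properdin that stabilises the alternative pathway, differed by 2.96 ± 0.16. C1qa, of the initiating complex of the classical pathway, was 9589, 9983, 13678 and 17159 CPM in microglia and 3043, 5912, 8225 and 6698 in macrophages (-1.13 ± 0.18, adjusted p = 0.000953). Over the list 5 of 17 were higher (29.4%) and 6 lower (35.3%) in macrophages, against 20.1% and 17.8% of all genes tested.

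Lysosomal genes were lower in macrophages for 17 of 27 and higher for 3 (median -0.63). Cst3, encoding the protease inhibitor cystatin C, was the most abundant at 38073, 48345, 48277 and 38660 CPM in microglia against 4165, 17778, 13472 and 9700 in macrophages (-2.11 ± 0.27, adjusted p = 0.000693; adjusted p = 0.165 in the control tumours alone). Ctsl, a cysteine protease, stood at 1697, 1615, 2135 and 2535 CPM against 673, 714, 810 and 730 (-1.43 ± 0.15, adjusted p = 7.89e-05). Grn, the lysosomal growth factor progranulin, differed by -1.0 ± 0.14 and Ctsd by -2.21 ± 0.18, with 33.2% of the Ctsd words shared.

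In lipid handling, 13 of 31 were higher and 10 lower. Pla2g7, which hydrolyses platelet-activating factor, stood at 640, 434, 463 and 414 CPM in macrophages and 53.8, 34.6, 65.6 and 82.9 in microglia (3.06 ± 0.23, adjusted p = 2.87e-05). The acyl-CoA synthetase gene Acsl1 (1.92 ± 0.20) was higher in macrophages in 4 of 4 libraries. Apoe, the lipid carrier, was not called, at 195, 437, 525 and 549 CPM against 619, 447, 332 and 690 (-0.33 ± 0.36, adjusted p = 0.517). Its order changed between libraries.

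Genes known from disease-associated microglia did not follow 1 class: 5 of 20 were higher in macrophages and 7 in microglia. Lgals3, encoding galectin-3, stood at 1373, 1154, 839 and 1354 CPM in macrophages and 113, 112, 128 and 210 in microglia (3.08 ± 0.19, adjusted p = 3.76e-06), and Cd52 differed by 1.58 ± 0.18. Spp1, encoding osteopontin, was higher in microglia of each library, at 111, 176, 616 and 2113 CPM against 32.2, 132, 192 and 578 (-1.50 ± 0.23, adjusted p = 0.00102; adjusted p = 0.328 without the library term). Spp1 also differed between libraries within each class, lowest in control tumours 1 and highest in Rbpj-deleted tumours 2.

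Metabolic genes of hypoxia and glycolysis were higher in macrophages for 15 of 21 and lower for 3 (median 0.89). Without control tumours 2 the count was 10 of 23 higher, and in the Rbpj-deleted tumours alone 10 of 24. Pfkp, the platelet phosphofructokinase, was 237, 93.2, 116 and 136 CPM against 15.3, 17.8, 22.6 and 21.0 (2.85 ± 0.27, adjusted p = 0.000171), and Gpi1 differed by 1.11 ± 0.17. Pfkfb3, a regulator of glycolytic flux, was lower in macrophages (-1.20 ± 0.17). Abundant enzymes of this list share many words with other genes, 54.7% for Pgk1 and 34.7% for Pkm.

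In the list of arginine, nitric oxide and itaconate genes 13 of 19 were higher in macrophages and 3 lower (median 1.68). Cybb, the catalytic subunit of the phagocyte oxidase, was 1680, 1508, 1248 and 1283 CPM in macrophages and 106, 133, 194 and 279 in microglia (3.08 ± 0.30, adjusted p = 0.000231). Gch1, which makes the cofactor of nitric oxide synthase, stood at 80.4, 70.7, 84.2 and 97.6 CPM against 22.7, 32.1, 23.4 and 23.2 (1.79 ± 0.16, adjusted p = 3.03e-05). Arginase itself was uneven: Arg1 was 72.1, 3.21, 4.95 and 81.8 CPM in macrophages, high in control tumours 1 and Rbpj-deleted tumours 2 and low in the other 2, against 0.288, 0, 0.684 and 17.2 in microglia (3.30 ± 0.76, adjusted p = 0.0205). Of the Arg1 UMIs, 80 of 130 in macrophages of control tumours 1 and 67 of 94 in microglia of Rbpj-deleted tumours 2 came from 1 cell each, and the call was lost without Rbpj-deleted tumours 1 (adjusted p = 0.0585), without the library term and with no filter on low counts (highest adjusted p = 0.144). Nos2 was low, at 16.1, 64.3, 4.4 and 6.66 CPM in macrophages and 0.576, 0, 2.58 and 0 in microglia.

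Ass1, which remakes arginine from citrulline, was 286, 254, 279 and 399 CPM in macrophages and 12.1, 14.3, 27.5 and 42.3 in microglia (3.74 ± 0.23, adjusted p = 9.2e-06), with 43.1% of its words shared. Of the iron genes, 3 of 13 were higher in macrophages (23.1%) and 2 lower (15.4%), against 20.1% and 17.8% of all genes tested. The ferritin heavy chain gene Fth1 differed by 1.18 ± 0.14 and the iron exporter gene Slc40a1 by -1.41 ± 0.21 (adjusted p = 0.0567 with the stricter gates). Matrix and wound repair genes were higher for 12 of 22 and lower for 6 (median 1.35), with Thbs1, encoding thrombospondin-1, at 411, 286, 190 and 278 CPM against 41.5, 50.7, 31.6 and 33.3 (2.87 ± 0.17, adjusted p = 2.89e-06). Lgals1 differed by 2.03 ± 0.17.

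TGF-beta signalling genes were lower in macrophages for 9 of 17 and higher for 2 (median -0.69). Smad7, the feedback inhibitor, was 612, 731, 786 and 595 CPM in microglia and 91.5, 222, 279 and 210 in macrophages (-1.85 ± 0.22, adjusted p = 0.000219). Pmepa1, another inhibitor induced by the pathway, was 357, 424, 474 and 346 CPM against 57.7, 119, 197 and 134 (-1.74 ± 0.22, adjusted p = 0.000442). Tgfbr1 and Tgfbr2, the receptor chains, differed by -1.80 ± 0.28 and -1.02 ± 0.18. The ligand gene Tgfb1 was not called (0.16 ± 0.13).

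Notch pathway genes showed no common direction, with 4 of 12 higher and 3 lower in macrophages. Jag1, a ligand, differed by 1.40 ± 0.27 (adjusted p = 0.282 in the control tumours alone), and Psen2, of the gamma-secretase, by 1.07 ± 0.16. The receptor-cleaving protease gene Adam10 was lower in macrophages (-0.84 ± 0.14). Rbpj, the gene deleted in 1 of the tumour groups, was not called between classes, at 42.7, 45, 55.6 and 45.3 CPM in macrophages and 42, 36.4, 42.9 and 30.4 in microglia (0.33 ± 0.15, adjusted p = 0.105), and since the labels do not say whether the immune cells carry the deletion, this level does not check it.

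Of 23 cell cycle genes tested, 5 were lower in macrophages and none higher (21.7% lower, against 17.8% of all genes tested; median -0.83), among them Top2a, the mitotic topoisomerase, at 16.6, 67.5, 15.4 and 54.0 CPM in macrophages and 45.2, 50.7, 64.8 and 201 in microglia (-1.47 ± 0.37, adjusted p = 0.0202). In control tumours 2, with 20 macrophages, the order was reversed. Without that library 16 of 23 were lower, in the Rbpj-deleted tumours alone 19 of 23, and Top2a lost its call without any 1 of the other 3 libraries (highest adjusted p over the alternatives 0.330). Rrm1, Rrm2 and Mcm3, DNA replication genes, lost theirs without Rbpj-deleted tumours 2, among other settings (highest adjusted p 0.714).

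Immediate early and stress genes, which also respond to tissue dissociation, were lower in macrophages for 8 of 24 and higher for 3. Egr1 was 1472, 1377, 1041 and 334 CPM in microglia and 271, 383, 460 and 222 in macrophages (-1.50 ± 0.29, adjusted p = 0.00522), and Rhob differed by -1.94 ± 0.38. Fos was not called (0.31 ± 0.19, adjusted p = 0.226). Of the glucocorticoid-induced genes, 4 of 13 were called in each direction (30.8%), against 20.1% higher and 17.8% lower of all genes tested. Sgk1 differed by -1.78 ± 0.28 and the decoy receptor gene Il1r2 by 1.68 ± 0.29. Ectoenzymes and purinergic receptors divided into 5 higher and 4 lower of 10, with Adora2b (3.77 ± 0.37) and Bst1 (3.72 ± 0.27) on the macrophage side.

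The Ms4a family of membrane proteins, one of whose members was in the gate, was higher in macrophages for 6 of 7 tested. Ms4a6b stood at 442, 659, 420 and 944 CPM against 128, 144, 122 and 266 (1.89 ± 0.14, adjusted p = 8.84e-06). Ms4a6c (2.99 ± 0.23) and Ms4a6d (1.90 ± 0.14) moved with it. Ms4a8a was read in macrophages at 27.7, 9.64, 7.7 and 17.5 CPM and in microglia at 0 in 3 libraries and 0.532 in Rbpj-deleted tumours 1 (5.57 ± 0.69, adjusted p = 0.00035); with microglial sums at or near 0 this fitted value depends on the prior count. Ms4a7, known from border macrophages, was 54.9, 48.2, 330 and 552 CPM in macrophages against 43.5, 44.6, 61.8 and 282 and was not called (1.10 ± 0.39, adjusted p = 0.0718).

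RNA of other cell types was measured in the same sums. T and NK cell genes summed to between 979 and 2055 raw CPM in macrophages and 267 and 873 in microglia, with Ccl5 the largest; the defining genes Cd3d, Cd3e, Cd3g and Trac were limited by the gates. Of 7 members tested 3 were higher in macrophages and 1 lower, Cd8b1 by 3.27 ± 0.36. B cell genes summed to 178 to 489 raw CPM in macrophages and 394 to 471 in microglia. Neutrophil genes summed to 148 to 534 in macrophages and 571 to 762 in microglia; 612 of the 618 S100a9 UMIs of microglia in control tumours 2 came from 1 cell. Oligodendrocyte, astrocyte and neuron genes summed to 51.2 to 132 in macrophages and 107 to 229 in microglia, among them Slc1a3 (-1.97 ± 0.30; adjusted p = 0.0930 in the control tumours alone). Dendritic cell genes, limited in the macrophage gate but not in the microglia gate, summed to 1103 to 1848 and 1620 to 2441. Erythroid genes reached no more than 1.49. The part of these RNAs in the class differences was not tested.

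Border macrophages were barcodes with at least 5 UMIs of the border genes, more than of the monocyte genes and more than of the microglial genes. The dendritic and lymphocyte limits were those of the macrophage gate. Compared with border macrophages (626 tumour barcodes: 56, 38, 330 and 202), of 9527 genes tested 1011 were higher in macrophages (10.6%) and 968 in border macrophages (10.2%). Mcemp1, a mast cell and myeloid membrane protein gene, was 271, 256, 189 and 277 CPM in macrophages and 12.8, 3.94, 10.1 and 19.6 in border macrophages (4.31 ± 0.22, adjusted p = 1.44e-08). Gas6 was 2.21, 3.2, 4.92 and 5.03 CPM in macrophages and 78.0, 57.1, 67.0 and 75.6 in border macrophages (-4.14 ± 0.24, adjusted p = 3.02e-08). Neither overlapped. Gpr141 (4.57 ± 0.40), Ass1 (4.32 ± 0.29), Napsa (4.6 ± 0.51) and Chil3 (4.83 ± 1.23, adjusted p = 0.0363, lost without any 1 of 3 libraries, to 0.169 at most) were the other largest rises. Rnase2a (-5.20 ± 0.75), Chp2 (-4.39 ± 0.47), Bmp2 (-4.33 ± 0.39) and C6 (-4.10 ± 0.39) were the other largest falls.

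The monocyte list separated macrophages from border macrophages too, with 21 of 25 members higher in macrophages and the others not called, and the border list 8 of 9 lower. Both lists come from the same cell biology as the gates that cut these classes. Their counts check the labels and are not independent evidence. Of the type I interferon genes, 20 of 36 were higher in macrophages than in border macrophages, with a median of 0.57. Irf7 stood at 618, 899, 791 and 1179 CPM against 233, 370, 448 and 512 (1.19 ± 0.14, adjusted p = 3.36e-05). Isg15 missed the threshold (0.94 ± 0.34, adjusted p = 0.0964). In control tumours 1 it stood at 992 against 1029 CPM, the other way from the other 3 libraries, and without that library it passed (1.31, adjusted p = 0.0407). H2-Aa did not separate these classes (-0.20 ± 0.16, adjusted p = 0.426), and glycolytic genes did, with 15 of 21 higher in macrophages. Of the iron genes 7 of 13 were lower in macrophages than in border macrophages and 1 higher.

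Whether the class difference itself differed with tumour genotype was tested as an interaction. Of 9529 genes, 11 were called (0.115%), the macrophage minus microglia difference being more positive in Rbpj-deleted tumours for 4 (0.042%) and more negative for 7 (0.0735%). Trim30d, of an interferon-induced family, was 29.9, 96.4, 109 and 91.9 CPM in macrophages and 1.15, 3.57, 84.9 and 70.4 in microglia, so the classes differed in control tumours and hardly in Rbpj-deleted ones (-4.34 ± 0.35, adjusted p = 0.000354). Acod1, the itaconate-making enzyme, was 144, 231, 123 and 152 CPM in macrophages against 9.79, 15.0, 44.1 and 32.0 (-2.05 ± 0.31, adjusted p = 0.0395). That call was lost without any 1 of the 4 libraries (adjusted p 0.0611 to 0.426) and with the stricter gates (adjusted p = 0.439), and 58 of the 72 Acod1 UMIs of macrophages in control tumours 2 came from 1 cell. Hpgd, which inactivates prostaglandins, was higher in microglia of control tumours, at 184, 201, 41.0 and 60.2 CPM, while macrophages held 15.5, 25.7, 40.2 and 32.2 (2.90 ± 0.37, adjusted p = 0.0190; adjusted p = 0.426 without control tumours 1), so the gap was narrower in Rbpj-deleted tumours. For all 3 the microglial levels of the 2 genotypes did not overlap, and for Hpgd the macrophage levels did not overlap either.

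Saa3 (-6.77 ± 0.42, adjusted p = 4.11e-05) was called with 1 UMI in each control microglial sum. Ptgs2, the inducible cyclooxygenase (-1.65 ± 0.22), and Capg, an actin-capping protein (-1.64 ± 0.24), differed less between classes in Rbpj-deleted tumours, and Glul, glutamine synthetase, likewise, since it is higher in microglia (1.29 ± 0.20); these 3 calls were lost without any 1 of control tumours 1 and the Rbpj-deleted libraries (highest adjusted p = 0.497). The call of S100a9 rests on few cells and is described with the results for a closer look. Tm4sf1, Arg1 and Clec7a, outside the naming rule, were the others, and each lost its call without control tumours 1 (adjusted p 0.399 to 0.622). With the stricter gates, which leave control tumours 2 without a macrophage sum, edgeR called none (691 genes had an unadjusted p under 0.05); leaving out single libraries gave 3 to 157 calls, and DESeq2 gave 38. Genotype and library group cannot be told apart here either: Trim30d in microglia of healthy brain 1 and 2 stood at 0.80 and 66.5 raw CPM, as far apart as the tumour groups, with both genes wt.

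Against healthy brain, where 50 and 32 barcodes met the macrophage gate, the class difference differed in 289 of 9515 genes (3.04%), more positive in tumours for 52 (0.547%) and more negative for 237 (2.49%). CPM in the remaining paragraphs are scaled over the 12 sums of the 6 libraries, and healthy brain 1 and 2 follow the 4 tumours. Ptafr was 455, 309, 298, 225, 73.3 and 71.4 CPM in macrophages and 184, 192, 144, 93.4, 187 and 154 in microglia, so its class difference changed sign between tumours and healthy brain (2.33 ± 0.28, adjusted p = 0.000827). Cd36, a fatty acid and lipoprotein receptor, was 39.9, 85.6, 35.9, 49.4, 195 and 114 CPM in macrophages and 51.3, 39.2, 59.0, 72.5, 8.46 and 5.42 in microglia (-4.74 ± 0.44, adjusted p = 0.000645). Cd36 in the macrophage gate was lower in tumours than in healthy brain, and in the microglia gate higher. C1qa in the macrophage gate was 2794, 5636, 7922 and 6219 raw CPM in tumours and 2495 and 1408 in healthy brain. Healthy macrophages are here the barcodes that met the gate. Whether the gate takes the same kind of cell in both tissues was not tested.

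For 9 members of the monocyte list the class difference was called different between tissues (3.04% of all genes tested there). Ace, Treml4 and Nr4a1, among them, are known from patrolling, Ly6C-low blood monocytes. Ace, the angiotensin-converting enzyme, was 48.6, 69.1, 29.5 and 24.7 CPM in tumour macrophages and 334 and 350 in healthy ones (-2.71 ± 0.31, adjusted p = 0.000785; adjusted p = 0.478 with the stricter gates). Treml4 was 57.9, 49.4, 53.9 and 63.7 CPM against 334 and 153 (-2.64 ± 0.31, adjusted p = 0.000827; adjusted p = 0.0572 with the stricter gates). Nr4a1, the nuclear receptor on which those monocytes depend, showed the change on the microglial side, at 414, 363, 656 and 135 CPM in tumour microglia and 47.5 and 50.6 in healthy ones (-3.56 ± 0.31, adjusted p = 0.000131). After thinning to 3000 UMIs, an Ace UMI was seen in 7.58%, 10.5%, 4.76% and 3.73% of tumour macrophages and in 52.3% and 51.7% of healthy ones (10.1%, 15.0%, 10.4%, 8.25%, 66.0% and 53.1% before thinning), against at most 0.861% of microglia. The gate gene Ly6c2 stood at 1838, 1615, 424 and 891 raw CPM in tumour macrophages and 409 and 596 in healthy ones. Ccr2 stood at 89.6, 85.8, 41.3 and 114 raw CPM against 31.9 and 113. Which kind of monocyte the gate held in healthy brain was not tested.

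Cxcl9, H2-Aa, Cd74 and Isg15, chosen after their values were seen, stood at higher levels in tumour than in healthy macrophages. The libraries of the 2 tissues did not overlap for them, with no test of each class alone. How many of all genes likewise do not overlap was not counted. Healthy macrophage sums held 0 and 7 UMIs of Cxcl9 and 25 and 24 of Isg15. Other genes of these kinds did overlap. H2-Eb1 in macrophages was at 181, 101, 8633 and 5864 raw CPM in tumours and at 2.90 and 173 in healthy brain. Its overlap rests on control tumours 2 lying below healthy brain 2. Cxcl9 stood at 4053, 3448, 2649 and 2679 CPM in tumour macrophages and at 0 and 25 in healthy ones, and H2-Aa at 7510, 5811, 7202 and 5147 against 243 and 250. Cd74, the invariant chain, was 21278, 19220, 15133 and 11247 CPM against 692 and 528. Isg15 was 1039, 2070, 1032 and 1200 CPM in tumour macrophages and 63.2 and 85.7 in healthy ones. Tumour microglia were likewise above healthy microglia for Isg15, at 183, 171, 258 and 243 CPM against 21.0 and 17.5, and the class difference of none of these 4 was called different between tissues (Isg15 0.66 ± 0.47, adjusted p = 0.578; H2-Aa -0.85 ± 0.36, adjusted p = 0.282; Cd74 -0.95 ± 0.30, adjusted p = 0.131; Cxcl9 -0.61 ± 2.30, adjusted p = 0.959).

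**Figure D4:**
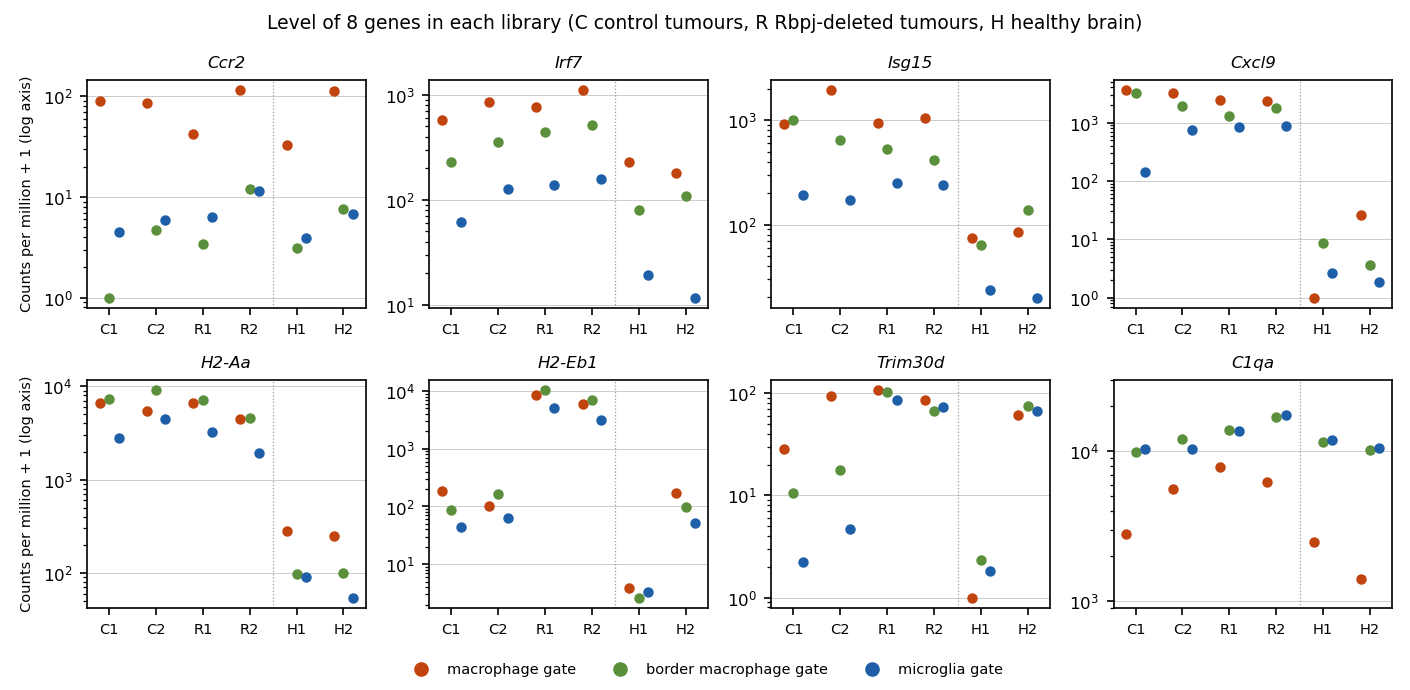
Level of 8 genes (raw CPM of the class, plus 1, log axis) in each library for the macrophage gate (orange), border macrophage gate (green) and microglia gate (blue); C are control tumours, R Rbpj-deleted tumours and H healthy brain. Isg15, Irf7, Cxcl9 and H2-Aa are higher in all 3 classes of the tumour libraries than of the healthy ones, taking each class by itself, while healthy brain 1 lies below healthy brain 2 in all 3 classes for H2-Eb1 and Trim30d.

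The other genes with the largest tissue interaction were less even. Tspan33 (2.67 ± 0.62), Clcn7 (2.65 ± 0.57), Ttc39b (2.46 ± 0.51) and Socs3 (2.29 ± 0.37) had a more positive macrophage minus microglia difference in tumours; healthy macrophages lay below healthy microglia (mean log2 difference -3.28, -1.63, -2.89 and -2.09) and the tumour classes lay closer together (-0.42, 1.0, -0.33 and 0.39). Syne1 (-5.10 ± 0.91), Ctla2a (-4.52 ± 0.91), Dusp5 (-4.10 ± 0.61) and Itga1 (-4.02 ± 0.64) had a more negative one, with healthy means of 4.74, 3.95, 5.74 and 5.72. Each of these 8 calls was lost in at least 1 alternative (highest adjusted p 0.0621 to 0.456): without control tumours 2 for Tspan33 and Ctla2a (adjusted p = 0.0793 and 0.0624), without Rbpj-deleted tumours 1 for Tspan33 (0.0574), without Rbpj-deleted tumours 2 for Clcn7 (0.0562) and Dusp5 (0.0596), without healthy brain 1 for Tspan33, Clcn7, Ttc39b and Dusp5 (0.0564 to 0.243), without healthy brain 2 for these and Socs3 and Syne1 (0.0621 to 0.291), and with the stricter gates for Itga1 (0.106). The healthy macrophage sums are small and mixed: in healthy brain 2, neutrophil genes made up 41551 raw CPM, and 4543 of its 4600 S100a9 UMIs came from 1 cell. Ctla2a in healthy macrophages was 172 and 7.14 CPM, far apart. Without healthy brain 2 the number of calls was 53, and 16 with the stricter gates.

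**Figure D5:**
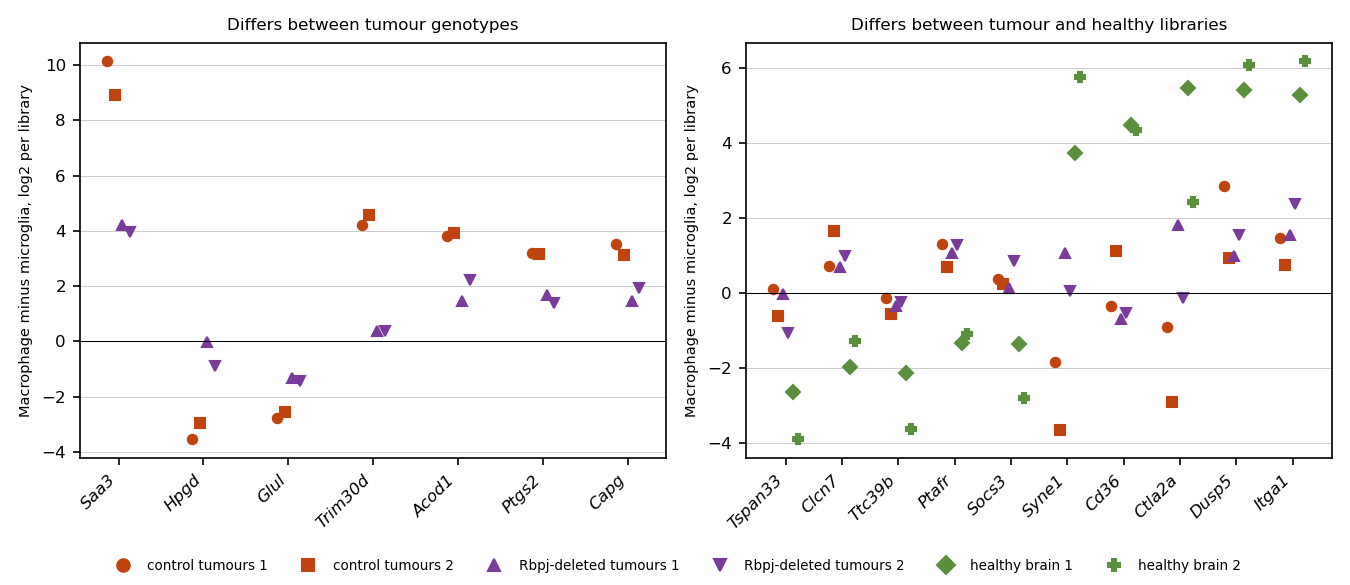
Macrophage minus microglia difference (log2) in each library for genes whose class difference differed between tumour genotypes (left, S100a9 left out because its control macrophage sums held no UMI) or between tumour and healthy libraries (right). Control tumours 1 and 2 lie on 1 side of the Rbpj-deleted libraries for every gene on the left, for Trim30d at above 4 against below 1, and both healthy libraries lie below the tumour libraries for Ptafr and above them for Cd36.

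Single cells gave the same order as the sums for Ccr2, Cxcl9 and C1qa. Other genes were also checked, and apart from Ace their shares are not given here. With every cell thinned to 3000 UMIs, a Ccr2 UMI was found in 27.3%, 21.1%, 14.3% and 25.7% of tumour macrophages and in at most 1.87% of microglia in any tumour library (unthinned, 50.7%, 50%, 28.7% and 50.5% against 2.18%, 2.44%, 3.65% and 4.85%). Cxcl9 was found in 62.1%, 52.6%, 66.7% and 51.8% of macrophages and 8.33%, 19.0%, 25.6% and 16.9% of microglia. C1qa was found in 40.9%, 63.2%, 82.3% and 70.2% of macrophages and in at least 99.5% of microglia in each library, so the C1qa RNA of the macrophage sums was spread over many barcodes. Thinning left out 6, 1, 17 and 14 macrophages and 23, 62, 165 and 85 microglia with fewer UMIs.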

How the data were processed

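The authors deposited 1 table of UMI counts (27378 gene IDs by 17362 barcodes), made per the submitters' processing notes with kallisto 0.46.0 and bustools 0.39.3 on mm10; the roles of those tools and the counting of strand are not given in the sources used here. Total counts were 17430763 to 55229031 per library. Barcodes with under 500 genes or over 10% mitochondrial counts (17), and copies of a barcode with over 10 times the counts in another library (256), were removed; 76 kept barcodes still share a sequence between libraries, 17 of them tumour members. No doublet caller was used; the gate limits on other lineages and the stricter gates stand in for it. Symbols were matched by gene ID in a table of gene names, and 27359 IDs had one.

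UMIs were summed per library and class (at least 20 cells), without the 27 gate genes. edgeR 4.0.16 (R 4.3.3; filterByExpr, TMM, robust quasi-likelihood, library as a block) tested the class difference, its interaction with genotype or tissue, and macrophages against border macrophages; p-values were adjusted over all genes tested (Benjamini-Hochberg, threshold 0.05). Levels are CPM; SE is the log2 difference divided by the root of F. The scripts were tested on simulated data. DESeq2 1.42.0, scaling by library size, no filter, left-out libraries, other gates, thinned cells and equal cell numbers were alternatives. Intervals are exact Clopper-Pearson intervals at 95% and cover counting error only.

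By the naming rule, the 12 genes with the largest difference each way were taken from those that passed the threshold with 1 direction in all 4 libraries and an average of 50 CPM or more in the higher class (gate, predicted, ribosomal, mitochondrial, antigen receptor and sex-linked genes left out), and up to 5 per direction likewise for the other comparisons. Up to 4 genes of smallest p were added per list, with no limit on level, direction or call. The gates, lists and genes were chosen with earlier results of these data known. Some genes that the rule names are not reported here.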

Additional observations from a re-analysis of the deposited data

Results flagged for a closer look

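In 10 of 182 genes checked (5.49%), the class difference of 1 tumour library stood apart from the other 3; chance gives about 1 in 20. Control tumours 1 stood apart for Ccr6 (-4.25 on the log2 scale, macrophage minus microglia), Bhlhe41 (-4.62), Selplg (-2.47), Tgfbr1 (-3.0), Cxcl2 (3.15) and Cfp (3.44). Control tumours 2, with 20 macrophages, stood apart for Clec4e (6.88), Fpr1 (4.91), Ms4a6b (2.19) and Ighm (-1.30).

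The class difference differed between tumour genotypes, by the interaction test, for Hpgd (2.90, Rbpj-deleted minus control, log2), Glul (1.29), Saa3 (-6.77), Trim30d (-4.34), Acod1 (-2.05), Ptgs2 (-1.65), Capg (-1.64), Arg1 (-5.43), Clec7a (-1.38), Tm4sf1 (8.82) and S100a9 (12.97). The S100a9 value is fitted against control macrophage sums with no UMI and depends on the prior count, as do those of Arg1 and Tm4sf1, each with a sum at 0 in control tumours 2. Of its UMIs in microglia of control tumours 2, 612 of 618 came from 1 cell, and in macrophages of Rbpj-deleted tumours 1, 232 of 238 came from 1 cell.

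Between tumour and healthy libraries it differed for Tspan33 (2.67, tumour minus healthy, log2), Clcn7 (2.65), Ttc39b (2.46), Ptafr (2.33), Socs3 (2.29), Syne1 (-5.10), Cd36 (-4.74), Ctla2a (-4.52), Dusp5 (-4.10), Itga1 (-4.02), Nr4a1 (-3.56), Ace (-2.71) and Treml4 (-2.64).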

How the results depend on the processing

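Among the single genes followed, called differences kept their direction under the alternatives run. For single genes 3512 values kept their direction and side of the threshold, 190 lost the call, 48 gained it and 13 changed sign. All 13 belong to differences that were not called: with single libraries left out, the class difference ran from -0.080 to 1.23 for Mbp, -0.98 to 0.40 for Syne1, -0.21 to 0.28 for Slfn8 and -0.69 to 0.10 for Apoe, and the tissue interaction of Cxcl9 from -2.48 to 8.90. The other sign changes were Slfn8 with scaling by library size (-0.052), Slfn8 (-0.53), Cd36 (0.23) and Fos (-0.079) in the control tumours alone, Syne1 (0.56) and Apoe (0.16) in the Rbpj-deleted tumours alone, and Cxcl9 between tissues with the stricter gates (6.28). The class difference gave 2398 calls in the control tumours alone, 1064 of them higher in microglia. The genotype interaction (11 calls) gave 17 with scaling by library size, 38 with DESeq2, 210 with no filter on low counts, 3 to 157 with single libraries left out (3 without control tumours 1, 157 without control tumours 2, 4 without Rbpj-deleted tumours 2) and 0 with the stricter gates by edgeR (691 at an unadjusted p under 0.05; DESeq2 was not run there). The tissue interaction (289 calls) gave 441 with DESeq2, 630 with no filter, 53 to 463 with single libraries left out and 16 with the stricter gates. The border comparison (1979 calls) gave 1188 to 1787 with single libraries left out. The stricter gates, the higher minimums and the removal of cycling cells leave control tumours 2 without a macrophage sum. Causes were not tested.

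Same-numbered tumour libraries did not share deviations of the class difference (r = -0.015, across 9529 genes). A shift common to both classes of a library cancels in that difference. The check therefore cannot decide whether the replicate numbers pair the libraries. With the replicate number as a replicate block the genotype interaction gave 60 calls, and the class difference gave 2754 calls with no replicate block.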
